A study of Arabidopsis thaliana with 18 samples.

Results

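The probe sets described here differed between the sav1-1 mutant and the wild type Col-0 in both lights, averaged near Col-0 in the sav3-2 mutant, and changed little with shade in Col-0. They were chosen from normalized log2(intensity + 16) values on Affymetrix arrays. The rule asked that sav1-1 minus Col-0 had 1 sign in white light and after low R:FR, with an absolute average of at least 0.5. It also asked that sav3-2 minus Col-0, averaged over both lights, stayed within 0.25 of 0, and that low R:FR moved Col-0 by less than 0.4 either way. Of 22746 probe sets 80 met the rule, 54 of them higher in sav1-1 (0.237% of all) and 26 lower (0.114%). These values chose the members, so the differences of these members between genotypes are given as descriptions, without a test.

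RNA came from whole Arabidopsis thaliana seedlings, 7 days old, of the mutants sav1-1 and sav3-2 and of Col-0, the accession that the labels also give for both mutants. All were grown at 22 °C on medium in simulated continuous white light of red (13 µmol m-2 s-1) and blue (1.23 µmol m-2 s-1) light. The groups labelled SH then had 1 h of added far-red (20.2 µmol m-2 s-1), a low red to far-red ratio (R:FR) of 0.7, while the groups labelled Wc stayed in white light. Each of the 6 groups held 3 arrays, described as independent biological replicates. Each mutant is represented by a single allele, and the labels name no gene for sav1-1. SAV3 is known as TAA1, which was not analysed here, so its transcript gives no check of the sav3-2 label.

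Plants read a low R:FR through phytochromes as a sign of neighbours and answer with elongation growth that needs newly made auxin. TAA1, the enzyme affected in sav3 mutants, makes the auxin precursor indole-3-pyruvic acid from tryptophan. The labels state as the purpose the mechanism by which Col-0, sav3 and sav1-1 respond differently to shade. The rule asks a narrower question, namely which transcripts differed from Col-0 with 1 sign in both lights in sav1-1 and by little on average in sav3-2. It works on averages, so single lights can differ. In sav1-1 the difference of 253485_at was 0.89 after low R:FR and 0.15 in white light. In sav3-2 that of 267565_at was 0.74 after low R:FR and -0.32 in white light.

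Of the 80 members 42 name 1 gene, 25 higher and 17 lower. Another 2, both higher, name several genes, and 36 name none here (27 higher and 9 lower). A filter on low values (log2 intensity above 4 on at least 3 arrays) was passed by 53 of the higher and 23 of the lower members. A member can pass it through the group in which it is high. AT1G48510 among the higher and AT5G10800, AT4G11870 and AT1G11915 among the lower members did not pass. Where a role is given for a locus tag, it is the protein family known for that gene and not part of the files.

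Differences were modest. Over the 54 higher members the median of sav1-1 minus Col-0, averaged over both lights, was 0.60 on the log2 scale, with values from 0.50 to 1.86. Only 3 of them reached a difference of 1, which is 2-fold. Over the 26 lower members the median was -0.54, with values from -0.98 to -0.50, and 0 reached 2-fold. Mean levels in Col-0 ran from 4.20 to 10.75 over the higher and from 4.69 to 10.93 over the lower members. Since 16 is added before the logarithm, 4 is the lowest possible level, and differences of dim genes are understated.

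**Figure D1:**
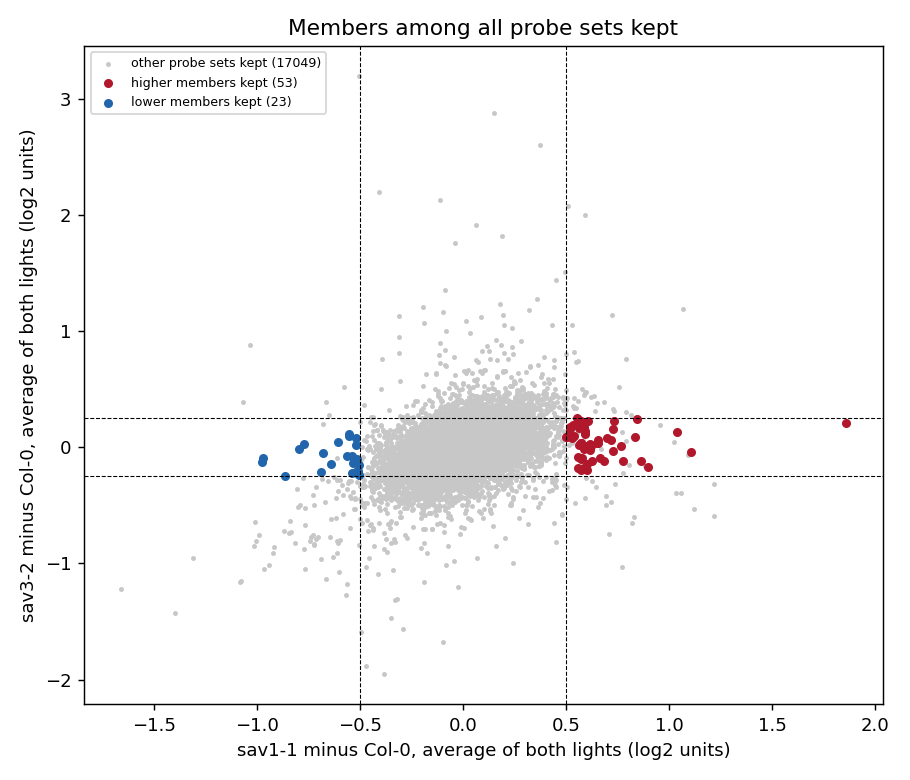
Each point is a probe set kept after the filter, with sav1-1 minus Col-0 on the horizontal and sav3-2 minus Col-0 on the vertical axis, both averaged over the 2 lights in log2 units and both using the same Col-0 arrays. Dashed lines mark 0.5 and 0.25, and the 53 higher (red) and 23 lower (blue) members lie beyond the vertical and between the horizontal lines, as the rule demands.

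STZ, also called ZAT10, a zinc finger repressor known from salt and other abiotic stress responses, was the named gene with the highest difference. After low R:FR it stood at 7.64, 6.91 and 7.90 in sav1-1, at 5.70, 6.08 and 6.37 in sav3-2, and at 5.93, 5.87 and 6.46 in Col-0. In white light its levels were 7.05, 6.65 and 6.97 in sav1-1, 6.10, 5.70 and 6.26 in sav3-2, and 6.06, 5.91 and 6.23 in Col-0. All 6 sav1-1 arrays lay above every array of the other genotypes, whose ranges overlapped. The difference from Col-0 was 1.40 after low R:FR and 0.82 in white light, an average of 1.11 (SE 0.16), or 2.16-fold.

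AT1G26390, a berberine bridge enzyme-like FAD-linked oxidase, showed another kind of pattern. Its levels after low R:FR were 6.80, 6.79 and 6.85 in sav1-1, 5.64, 5.46 and 6.86 in sav3-2, and 5.31, 5.27 and 6.43 in Col-0. In white light they were 6.92, 6.62 and 6.89 in sav1-1, 6.28, 5.13 and 6.09 in sav3-2, and 5.76, 5.29 and 6.59 in Col-0. The sav1-1 arrays were close together and above all Col-0 arrays of the same light. In sav3-2 after low R:FR, replicate 3 was as high as the sav1-1 arrays and the other two were far below. Its average difference from Col-0 was 1.04 (SE 0.25).

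AT3G18250 stood at 7.57, 7.55 and 7.58 in sav1-1 after low R:FR, against 6.40, 6.43 and 6.79 in Col-0. In white light the values were 7.54, 7.28 and 7.39 in sav1-1, against 7.15, 5.95 and 6.81 in Col-0. Its sav1-1 arrays lay above all Col-0 and all sav3-2 arrays in each light, with an average difference from Col-0 of 0.90 (SE 0.18). AT4G27657 was less even: after low R:FR it read 5.93, 4.79 and 6.25 in sav1-1, against 4.12, 4.06 and 5.36 in Col-0, so that the groups overlapped there. Sav3-2 stood 0.50 above Col-0 after low R:FR. In white light sav1-1 and Col-0 did not overlap, at 5.26, 5.33 and 5.42 in sav1-1, against 4.89, 4.50 and 4.98 in Col-0.

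AT4G21870, a small heat shock protein of the HSP20 type, had little spread. Its levels after low R:FR were 8.71, 8.95 and 8.61 in sav1-1, against 7.94, 7.98 and 8.20 in Col-0, and in white light 8.73, 8.67 and 8.66 in sav1-1, against 7.72, 8.17 and 7.97 in Col-0. The sav3-2 arrays ran from 8.06 to 8.39, below all sav1-1 arrays. The average difference between sav1-1 and Col-0 was 0.73 (SE 0.085).

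AT2G38870, a serine protease inhibitor of the potato inhibitor I family, was another of the higher members. After low R:FR it read 9.15, 9.37 and 9.23 in sav1-1, against 8.28, 8.40 and 8.57 in Col-0. In white light it read 9.19, 9.01 and 9.09 in sav1-1, against 8.72, 8.12 and 8.64 in Col-0. The groups did not overlap in either light, and the average difference was 0.72 (SE 0.12).

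**Figure D2:**
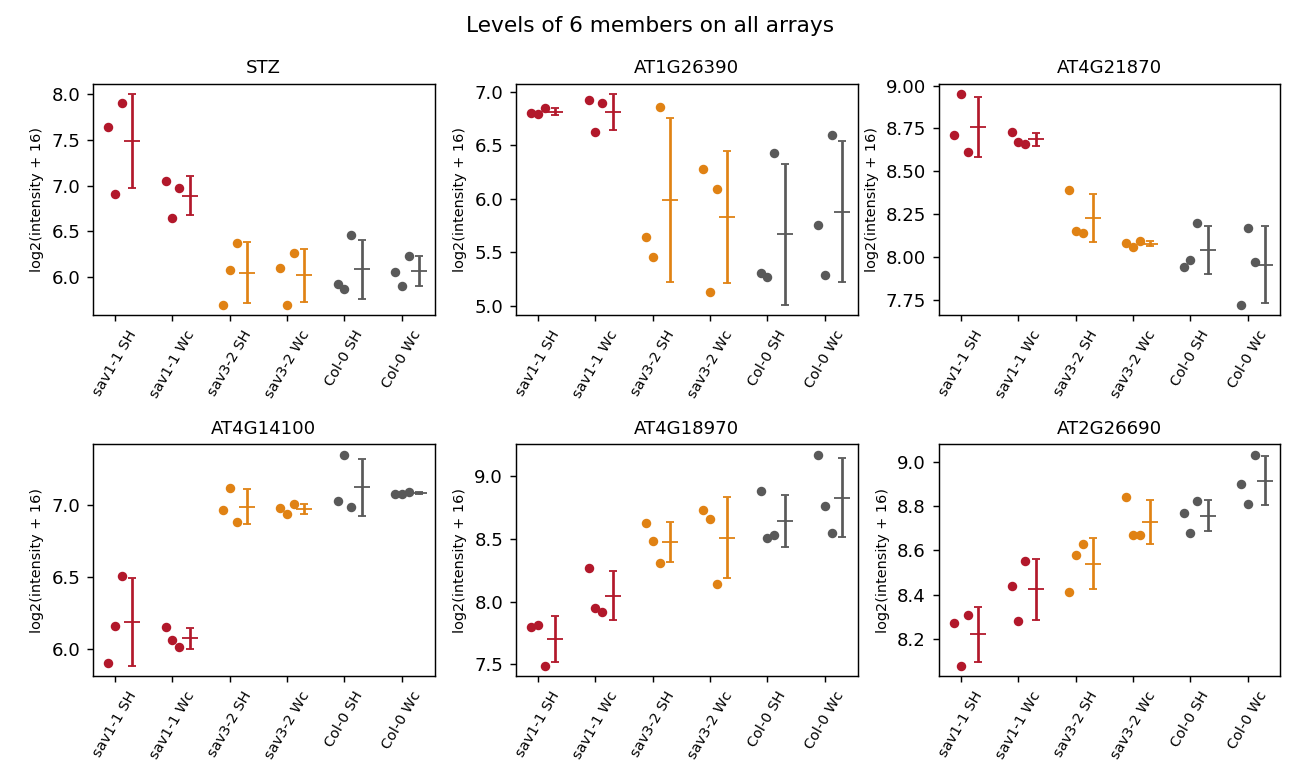
Levels of 6 members as log2(intensity + 16) on every array, by group, with points for arrays and, beside them, the mean with its SD over 3 arrays. STZ, AT1G26390 and AT4G21870 (top) were higher members and AT4G14100, AT4G18970 and AT2G26690 (bottom) lower members, and in all 6 panels the sav1-1 points of a light lie on one side of the Col-0 points of that light.

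The remaining genes among the 12 named higher members with the largest differences averaged between 0.63 and 0.76 above Col-0. AT2G15220, a plant basic secretory protein, differed by 0.76 (SE 0.21) on a probe set whose name marks it as shared by more than 1 transcript. AT5G42830, of the HXXXD-type acyltransferases, differed by 0.73 (SE 0.15), and AT5G38910, a germin-like cupin, by 0.70 (SE 0.23). AT4G25410, a basic helix-loop-helix factor, differed by 0.65 (SE 0.18). AT5G39670, a calcium-binding EF-hand protein, stood 0.65 higher (SE 0.21), and AR781 0.63 (SE 0.11). Of these 12 genes 7 had sav1-1 arrays apart from Col-0 in both lights (1.08% of all probe sets), 3 in 1 light, and 2, AT5G38910 and AT5G39670, in neither. They were ranked by this same difference, so nothing follows from these counts.

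The other 13 named higher members averaged 0.51 to 0.62 above Col-0 and, apart from the 3 next to the threshold, were named after their values were seen, so that each is accounted for. AT1G49570 (0.62), AT1G14550 (0.59), AT4G26010 (0.57) and AT5G39580 (0.53) are class III peroxidases, secreted enzymes that act on cell wall phenolics and hydrogen peroxide. They were put together after their values were seen, with no count of such genes over all probe sets. AT1G49570 stood at 6.12, 6.29 and 6.43 in sav1-1 after low R:FR, against 5.52, 5.84 and 5.69 in Col-0. AT3G16670 (0.60) and AT5G10130 (0.57) belong to the pollen Ole e 1 allergen and extensin family. AT3G16670 stood at 9.38, 9.37 and 9.30 in sav1-1 after low R:FR, against 8.68, 8.65 and 8.41 in Col-0.

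Among the rest of the 13, AT1G30990 (0.62) is a polyketide cyclase-like protein, AT1G33790 (0.60) a jacalin lectin, AT1G24530 (0.58) a WD40 repeat protein and AT3G60270 (0.51) a cupredoxin. TAC1, telomerase activator1 (0.55), AT2G18690 (0.59) and AT1G48510 (0.53) completed them. TAC1 lay at a limit of the rule, with sav3-2 above Col-0 by 0.25 on average. After low R:FR sav3-2 stood 0.49 above Col-0, close to the 0.57 of sav1-1 there, and in white light 0.0059. Its levels in sav1-1 were only 4.78 to 5.36, near the lower end of the scale. AT1G48510 also lay close to that limit, with sav3-2 above Col-0 by 0.246 on average. After low R:FR it stood 0.36 above Col-0 in sav3-2 and 0.51 above in sav1-1.

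The largest difference of all belonged to a probe set that names no gene here, 267565_at. It read 7.53, 8.63 and 8.60 in sav1-1 after low R:FR, 6.82, 6.54 and 7.74 in sav3-2, and 6.05, 5.91 and 6.92 in Col-0. In white light it read 7.79, 8.32 and 8.65 in sav1-1, 7.32, 5.42 and 5.78 in sav3-2, and 6.68, 5.60 and 7.20 in Col-0. The average difference was 1.86 (SE 0.31), or 3.63-fold, and its sav1-1 arrays lay above Col-0 in both lights. The 29 higher members that name no single gene had a median of 0.59.

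AT4G14100 had the largest negative difference among the lower members. After low R:FR it stood at 5.90, 6.16 and 6.51 in sav1-1, 6.97, 7.12 and 6.88 in sav3-2, and 7.03, 7.35 and 6.99 in Col-0. In white light it stood at 6.15, 6.06 and 6.01 in sav1-1, 6.98, 6.94 and 7.01 in sav3-2, and 7.08, 7.08 and 7.09 in Col-0. All 6 sav1-1 arrays lay below all 12 others. The average difference from Col-0 was -0.98 (SE 0.096).

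AT4G18970, a GDSL-type esterase or lipase, came next among named genes. Its levels after low R:FR were 7.80, 7.81 and 7.49 in sav1-1, against 8.88, 8.51 and 8.53 in Col-0, and in white light 8.27, 7.95 and 7.92 in sav1-1, against 9.17, 8.76 and 8.55 in Col-0. The groups did not overlap, the average difference was -0.86 (SE 0.12), and sav3-2 lay at -0.24, close to the limit of the rule. Another GDSL-type gene, AT1G31550, stood at 4.31, 5.15 and 4.67 in sav1-1 after low R:FR, against 5.61, 5.38 and 5.52 in Col-0, an average of -0.60 (SE 0.17) over both lights.

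AT2G26690, the transporter NPF6.2 of the nitrate and peptide transporter family, had a smaller but tight difference. After low R:FR it read 8.27, 8.08 and 8.31 in sav1-1, against 8.77, 8.68 and 8.82 in Col-0. In white light it read 8.44, 8.28 and 8.55 in sav1-1, against 8.90, 8.81 and 9.03 in Col-0. The groups did not overlap in either light, and the average difference was -0.51 (SE 0.076), with sav3-2 at -0.20.

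AT4G16870, which the gene table lists as a pseudogene, differed by -0.69 (SE 0.14). AT1G45180, a RING-type protein, differed by -0.68 (SE 0.13), with 5.13, 4.86 and 5.28 in sav1-1 after low R:FR, against 5.91, 6.11 and 5.76 in Col-0. AT1G60590, a pectin lyase-like enzyme of the cell wall, differed by -0.55 (SE 0.13), and AT5G38030, a MATE-type efflux carrier, by -0.52 (SE 0.14). AT3G04490 (-0.55), AT5G53030 (-0.54), the TRAF-like AT4G01390 (-0.53) and AT5G61865 (-0.51) made up the 12 named lower members with the largest differences that passed the filter. After low R:FR AT5G53030 differed from Col-0 by -0.79 in sav1-1 and by -0.50 in sav3-2. In white light it differed by -0.29 and 0.05. Sav1-1 lay apart from Col-0 in both lights for 5 of the 12 (1.2% of all probe sets), in 1 light for 6, and in neither for AT5G61865. The 12 were ranked by this same difference, so nothing follows from these counts.

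The other 5 named lower members averaged -0.54 to -0.50. They were AT5G10800, an RNA recognition motif protein, AT4G11870, AT1G11915, AT3G53040, a late embryogenesis abundant (LEA) protein, and SDS (SOLO DANCERS), a cyclin-like protein known from meiosis. AT3G53040 differed from Col-0 in white light by -0.18 in sav1-1 and by -0.18 in sav3-2, whose average of -0.24 lay close to the limit of the rule. After low R:FR SDS differed by -0.61 in sav1-1 and by -0.38 in sav3-2. SDS levels ran from 4.04 to 4.64 in sav1-1, at the lower end of the scale. The 9 lower members that name no gene had a median of -0.56 and reached -0.97.

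Among probe sets that name 1 gene, those just inside the threshold of 0.5 were AT3G60270 (0.51), AT1G48510 (0.53) and AT5G39580 (0.53) among the higher, and SDS (-0.50), AT3G53040 (-0.50) and AT1G11915 (-0.51) among the lower members. Members without a gene name also lay there, such as 256522_at, nearer than these higher members at 0.50, and 253040_at at -0.507. Just outside it, again with 1 gene named, lay HRGP1 (0.499), AT2G41990 (0.498) and AT1G68730 (0.495) on the higher side, and AT4G38690 (-0.497), AT1G70880 (-0.496) and AT4G28780 (-0.468) on the lower side. These steps are smaller than the SE of such averages, which was 0.17 for AT3G60270 and 0.20 for SDS.

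In both lights, sav1-1 and Col-0 arrays did not overlap for 31 of the 54 higher members (1.08% of all probe sets) and 13 of the 26 lower members (1.2% of all). Against sav3-2, 28 higher members (1.35% of all) and 10 lower members (1.36%) did not overlap in both lights. Both held for 19 higher and 8 lower members, which was not counted over all probe sets. The rule used these differences, so nothing follows from these counts.

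The arrays of sav3-2 and Col-0 did not all hold the higher members at the same level. In Col-0 after low R:FR, replicate 3 was the highest array for 34 of the 54 higher members, where it was the highest for 37.2% of all probe sets kept. In sav3-2 after low R:FR, replicate 3 was the highest for 39 of the 54 (36.0% of all kept). Replicate 2 was the lowest array in white light for 33 of the 54 in sav3-2 (29.4% of all kept) and likewise for 33 in Col-0 (28.5%).

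In sav1-1 the higher members varied less. Their median SD within groups was 0.18 in sav1-1, 0.32 in sav3-2 and 0.31 in Col-0, where all probe sets kept had 0.16, 0.18 and 0.18. For the lower members the medians were 0.23, 0.21 and 0.27 in the same order. The spread and the rule are not independent, since the rule used the same arrays. Averaged within each replicate number, the higher members had median differences from Col-0 of 0.65, 0.78 and 0.48 for numbers 1, 2 and 3. The lower members had medians of -0.58, -0.66 and -0.54. The rule used these same arrays and largely fixes the sign of these values.

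**Figure D3:**
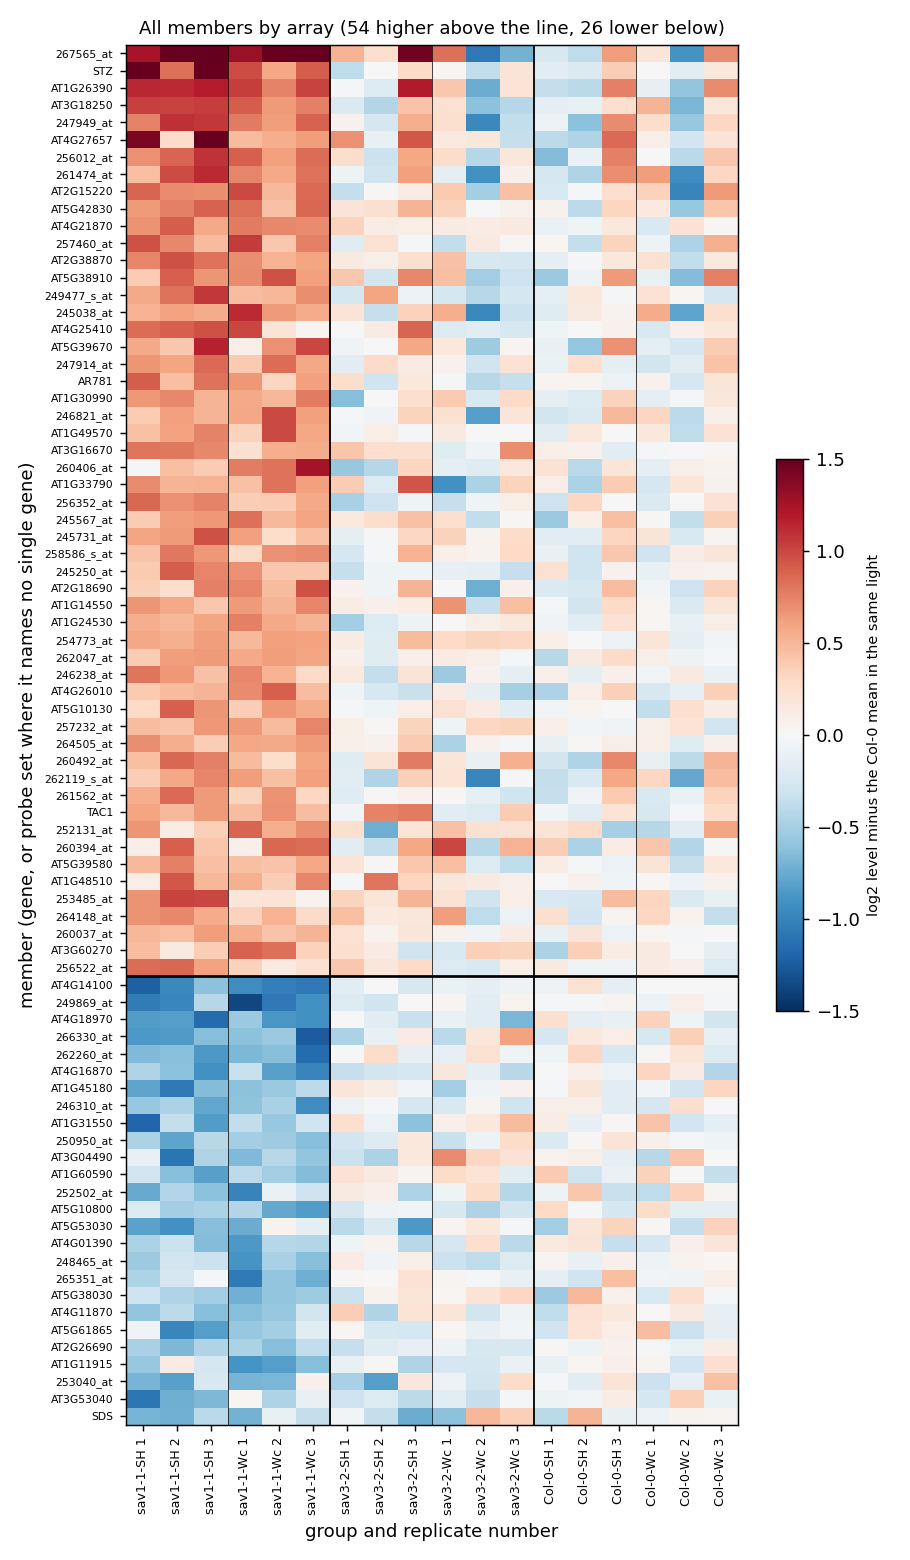
Each row is a member and each column an array, coloured by the log2 level minus the Col-0 mean in the same light, with colours clipped at 1.5 either way. The 54 higher members (above the line) are mostly red in the 6 sav1-1 columns. In the columns of sav3-2 and Col-0 after low R:FR, replicate 3 was the highest array of its group for 39 and 34 of these rows.

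The rule was also applied to 2 replicate numbers at a time, and the difference was then read in the arrays of the number left out. With number 1 left out, 61 probe sets were chosen as higher, and their median was 0.44 in the left-out arrays against 0.58 in those used. With number 2 left out the values were 64 probe sets, 0.42 and 0.55, and with number 3 left out they were 87 probe sets, 0.32 and 0.60. Between 82.8% and 86.9% of those chosen as higher were also above Col-0 in the left-out arrays, where 49.5% to 50.6% of all probe sets kept were. Each left-out value rests on a single array per group, and probe sets on the same arrays vary together. The choices also share arrays and only in part hold the members. These shares, and those below, are therefore descriptions and no test of the members.

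Those chosen as lower held less of their difference. The medians in the left-out arrays were -0.24, -0.28 and -0.24 with numbers 1, 2 and 3 left out, against -0.56, -0.57 and -0.56 in the arrays used. Between 66.7% and 79.5% were below Col-0 in the left-out arrays, where 49.3% to 50.5% of all probe sets kept were. Of the 54 higher members 28 to 38 were chosen again, and of the 26 lower members 14 to 19.

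**Figure D4:**
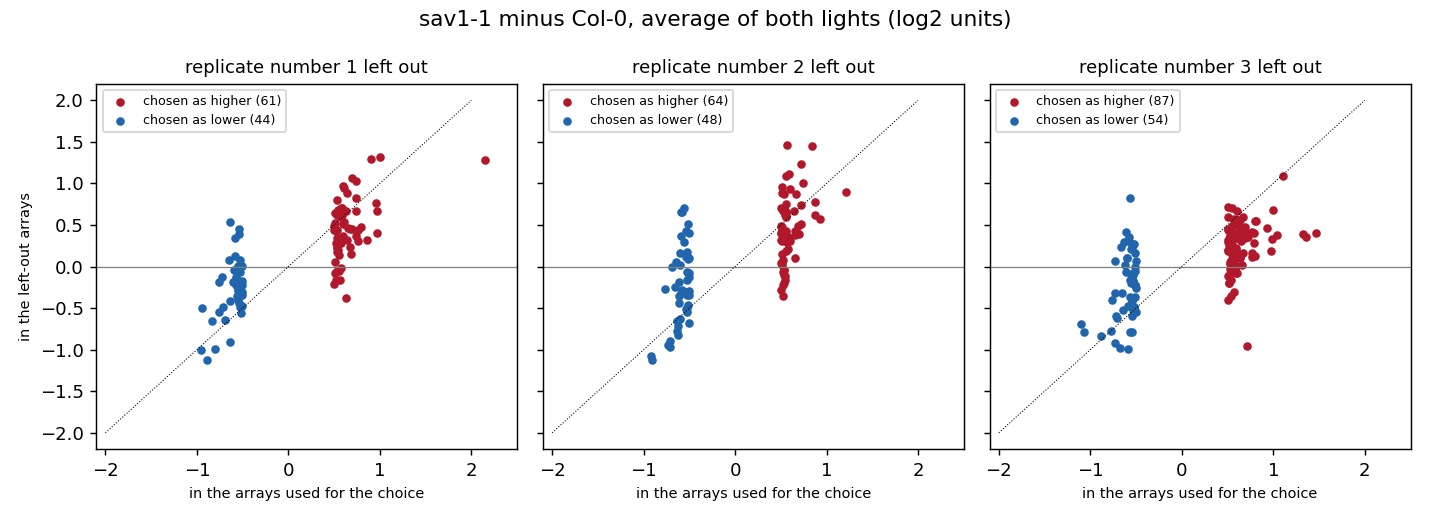
Each point is a probe set chosen by the rule from 2 replicate numbers, with sav1-1 minus Col-0 in those arrays on the horizontal and in the left-out arrays on the vertical axis, both in log2 units, and the dotted line marks equal values. Most points chosen as higher (red) lie above 0 and most chosen as lower (blue) below it, with left-out medians of 0.32 to 0.44 for those chosen as higher and -0.28 to -0.24 for those chosen as lower.

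The response to low R:FR within each mutant was not part of the rule and was tested. In sav1-1, 0 of the 76 members kept passed the limma fit at a Benjamini-Hochberg adjusted p under 0.05, where 1.85% of all probe sets did. This fit had no block on replicate number, and with the block 3 members were called, where 2.92% of all probe sets were. An unadjusted p under 0.05 was found for 7 of the 53 higher members (13.2%) and 4 of the 23 lower members (17.4%), against 8.50% of all. The median change was -0.01 over the higher and 0.01 over the lower members, against -0.01 over all. The rule limits this change in part, since it asks for 1 sign in both lights and a small change in Col-0.

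STZ stood 0.60 higher in sav1-1 after low R:FR than in white light (SE 0.22, limma adjusted p = 0.321). Blocked on replicate number, the SE was 0.16 and STZ was called (limma adjusted p = 0.0370), as were 2 higher members without a gene name, 245731_at (0.57, adjusted p = 0.0118) and 253485_at (0.72, adjusted p = 0.0331). The blocked fit called 2.92% of all probe sets. Without sav1-1 SH replicate 2, the lowest STZ array after low R:FR in sav1-1, the change was 0.88 (limma adjusted p = 0.0442). In sav3-2 the change of STZ was 0.03 (SE 0.22).

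AT3G16670 read 9.38, 9.37 and 9.30 in sav1-1 after low R:FR, against 8.73, 9.05 and 9.06 in white light, without overlap, and its change of 0.41 did not pass (limma adjusted p = 0.374). Without all arrays numbered 3 it was called in both mutants, at 0.49 in sav1-1 and 0.54 in sav3-2 (limma adjusted p = 0.0426 and 0.0302). AT3G53040, the LEA gene, read 4.13, 4.48 and 4.54 in sav1-1 after low R:FR, against 5.09, 4.60 and 4.95 in white light, a difference of -0.49 that did not pass either (limma adjusted p = 0.415). In all, the sav1-1 arrays of the 2 lights did not overlap upwards for 5 of the 54 higher members (6.7% of all probe sets) and downwards for 4 (7.09%). Of the 26 lower members 2 did so upwards and 2 downwards.

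In sav3-2, 0 of the 76 members passed, where 0.806% of all probe sets did, and 5 higher members and 1 lower member had an unadjusted p under 0.05 (8.34% of all). The median change was 0.09 over the higher and -0.07 over the lower members, against -0.01 over all. Of the 53 higher members 69.8% had a change above 0, against 48.2% of all probe sets, and of the 23 lower members 30.4% did. Taken within each replicate number, these medians had an SD of 0.22 over the higher and 0.06 over the lower members (n = 3 numbers). In size, the median of the higher members was below its SD, and that of the lower members slightly above. These SDs are between single numbers and larger than the SE of a mean over 3 numbers. They therefore do not say whether the medians differ from 0.

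**Figure D5:**
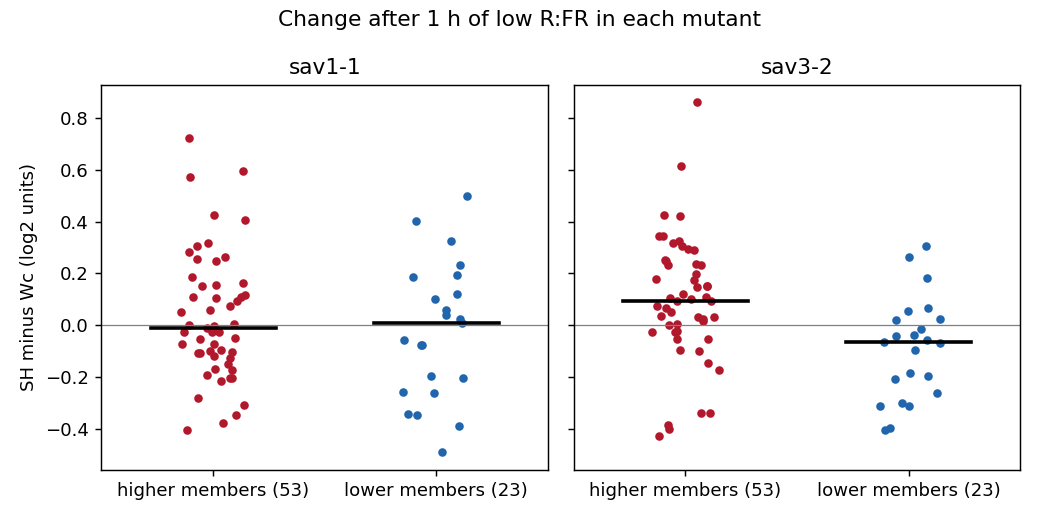
Points give the change after 1 h of low R:FR (SH minus Wc, in log2 units) for each of the 53 higher and 23 lower members that passed the filter, in sav1-1 (left) and sav3-2 (right), and bars give medians. The sav1-1 medians are -0.01 and 0.01, and those in sav3-2 are 0.09 and -0.07.

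Whether the difference between sav1-1 and Col-0 depended on the light was tested as the difference of their shade responses, which the rule limits by asking for 1 sign in both lights and a small change in Col-0. Of the 76 members 0 passed, as did 0 of all 17125 probe sets tested (0%), so the test does not separate members from other probe sets. At an unadjusted p under 0.05 there were 2 higher members and 1 lower member (2.52% of all). Of the 54 higher members 32 had a larger difference after low R:FR and 22 in white light. Of the 26 lower members 12 and 14 did. STZ had 1.40 after low R:FR and 0.82 in white light, a difference of 0.58 (SE 0.315) that did not pass (limma adjusted p = 0.99993).

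Of 25 gene lists, matched by symbol or synonym, 2 held a member each. Together the lists cover 343 probe sets, of which these 2 are 0.583%, against 0.311% of the 13513 probe sets that name 1 gene, so the 23 lists without a member are no result about the members. STZ is on the abscisic acid, LEA and cold list. Its 17 probe sets kept had a median difference between sav1-1 and Col-0 of -0.10, against 0.00168 over all probe sets kept. They ran from -1.66 for COR15A, which was also lower in sav3-2 (-1.22), to 1.11 for STZ. AT2G26690 is on the nitrate, ammonium, phosphate and sulphate list, whose 16 probe sets kept had a median of -0.07.

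In the shade response of sav1-1, 0 of the 17 probe sets of the first list and 0 of the 16 of the second were called by limma, and 2 and 1 of them had an unadjusted p under 0.05. On the list of peroxidases, glutathione transferases and oxidative stress genes 0 of 23 were called and 2 had an unadjusted p under 0.05. The 4 peroxidase genes named above carry no peroxidase symbol or synonym in the gene table and are not on that list. Likewise the LEA gene AT3G53040, the HSP20-type AT4G21870 and the basic helix-loop-helix gene AT4G25410 are on no list. Lists matched by symbol or synonym can thus miss genes named only by locus tag.

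No tissue marker list held a member. Of the 4 named root markers 3 passed the filter, namely PYK10, EXPA7 and EXPA18, with average differences between sav1-1 and Col-0 of -0.17, 0.40 and 0.28, while AT3G50990 did not pass. In sav3-2 the averages of PYK10, EXPA7 and EXPA18 were -0.10, -0.26 and -0.23. A sum of linear intensity is weighted to the brightest probe set, so it need not follow most of the list. EXPA7 and EXPA18 were higher in sav1-1 than in Col-0 on average. Summed over the 4, normalized intensity after low R:FR ran from 4720 to 5235 in sav1-1 and from 5054 to 5925 in Col-0. In white light the sum ran from 4215 to 5753 in sav1-1 and from 5736 to 6397 in Col-0. In sav3-2 it ran from 4680 to 6084 after low R:FR and from 4655 to 5860 in white light, overlapping sav1-1 in both. The light harvesting and photosynthesis list, with 21 of 23 kept, summed to 50479 to 57104 in sav1-1 and 50781 to 57140 in Col-0 over both lights. In sav3-2 this list summed to 50708 to 58614. Seed and embryo markers were near the lower end, with 1 of 3 kept, and summed to 14.8 to 27.3 in sav1-1 and 37.4 to 55.7 in Col-0 after low R:FR. In white light they summed to 14.7 to 33.7 in sav1-1 and 28.1 to 36.9 in Col-0. In sav3-2 they summed to 8.92 to 41.8 after low R:FR and 19.4 to 32.9 in white light. Their part in the members' differences was not tested, and in whole seedlings fewer cells of a type and less RNA per cell cannot be told apart.

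By their locus tags the named higher members fell on all 5 chromosomes, with 8, 4, 4, 4 and 5 genes on chromosomes 1 to 5. The lower members had 5, 1, 2, 5 and 4 there. Chromosome 4, with 14.6% of all named probe sets kept, held 5 of the 17 lower members, among them AT4G11870, which did not pass the filter. These 5 followed one another without a higher member between them, but with 293 to 1785 genes from each to the next. AT5G39580 and AT5G39670, a peroxidase and an EF-hand gene that were both higher, had 10 genes between them. This was the fewest between any members that name 1 gene, so none of these were direct neighbours. The 36 members that name no gene and the 2 that name several were not placed, so neighbours among them cannot be seen.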

How the data were processed

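Intensity values were deposited for 22810 probe sets on 18 arrays, on a linear scale. GCRMA, with no version, is the tool in the submitters' processing notes, and its settings were not given in the sources used here. Array medians of the deposited intensity ran from 34.4 to 65.6, so values were quantile normalized after leaving out 64 control probe sets, and log2(value + 16) was taken. This step hides any shift shared by most genes. Within groups, r between arrays ran from 0.973 to 0.987 over genes, which are not independent replicates.

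The rule was applied to all 22746 probe sets and left out symbols starting IAA, GH3, WRKY, MYB, CYP or UGT. Among probe sets that name 1 gene, 0 that met its other terms had such a symbol. Probe sets that name none or several could not be checked for these families. The 36 members that name none and the 2 that name several may therefore hold such genes. Tests used limma 3.58.1 in R 4.3.3 (lmFit and eBayes with a trend) over all 18 arrays in a group means model, on the 17125 probe sets with log2 intensity above 4 on at least 3 arrays. They were two-sided, with Benjamini-Hochberg adjustment over all of these and a threshold of 0.05. SE values are from this fit, whose precision is limited by the number of arrays. The scripts were tested on simulated data.

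Probe sets were named by GEO's platform annotation with symbols updated from the TAIR10.1 gene table, used for names and neighbours only. Of the probe sets 13513 name 1 gene, 503 several and 8730 none here, and 13508 of the first matched the table. Named were the 12 higher and 12 lower members with the largest average difference that name 1 gene and pass the filter, members on a list, members called in a shade test and those next to the threshold. Members and lists were chosen with earlier results of these data known.

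Replicate numbers come from the sample titles. Same-numbered arrays of the 2 lights deviated together from their group means, with correlations from 0.108 to 0.272 in sav1-1 and from 0.105 to 0.248 in sav3-2. In Col-0 they ran from 0.0714 to 0.290. Same-numbered arrays of sav1-1 and Col-0 did so too, with 0.163 to 0.332 in white light and 0.0963 to 0.335 after low R:FR. The main fit had no block on these numbers, and a fit with the block was an alternative. No promoter or protein sequences were used here, so a planned search for promoter motifs was not run.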

Additional observations from a re-analysis of the deposited data

How the results depend on the processing

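Membership depends on the scale. Without normalization between arrays 105 probe sets met the rule as higher and 11 as lower, sharing 46 and 10 with the members. The counts were 203 and 224 with a pseudocount of 1 (35 and 17 shared) and 16 and 7 with a pseudocount of 64 (14 and 5 shared), since the pseudocount sets how far dim genes are pulled together. Scaling to the same median gave 53 and 25, and including control probe sets 54 and 26. When arrays were left out, singly or by replicate number, higher members ran from 44 to 87 and lower members from 22 to 54, the most without all arrays numbered 3. Of 780 averages of the named genes under these settings 0 changed sign, and 24 moved by more than the spread between replicates. The rule chose these genes on the same arrays for differences of at least 0.5, which largely fixes the sign of these averages.

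Members called in the shade response of sav1-1 numbered 3 with the replicate number as a block, 2 with array weights and 1 with a pseudocount of 64, and from 0 to 2 when arrays were left out (2 without Col-0 SH replicate 3, 245731_at and 253485_at; 1 without all arrays numbered 3). In sav3-2 they numbered 0 with the block and from 0 to 2 when arrays were left out, with 2 without all arrays numbered 3. The block changed no other call of a named gene in these shade responses, and was not applied to the differences between genotypes, which carry no test. Over all probe sets, calls in sav1-1 numbered 500 with the block and 344 without Col-0 SH replicate 3. Such counts are not given here for every setting, so nothing follows from the member counts. Across settings, calls in sav1-1 ran from 101 to 528 against 316, and in sav3-2 from 23 to 277 against 138. Both were lowest without all arrays numbered 2, while without all arrays numbered 3 those in sav3-2 numbered 259. For the difference of shade response between sav1-1 and Col-0, members called were 0 in every setting. The median change in sav1-1 ran from -0.0465 to 0.0759 over the higher and from -0.0639 to 0.0716 over the lower members when arrays were left out. In sav3-2 it ran from -0.00888 to 0.243 over the higher and from -0.143 to -0.0339 over the lower members, and without normalization between arrays it was 0.0770 over the lower members. The cause was not tested.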
